A study of Mus musculus with 2 samples.

Results

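MiR-146a-5p, miR-146b-5p and miR-155-5p are miRNAs that NF-kB signaling is known to induce, and their array signals are described here in bone marrow LSKs before and after BCR/ABL (BA) induction. They are 3 of 1881 mouse miRNAs on the array and were chosen by name. LSKs, the Lin-Sca1+c-Kit+ cells that hold stem cells and early progenitors, were sorted from C57BL/6 mice carrying an Scl/tTA-BA tet-off transgene. In this model the Scl/tTA construct directs the transgene to hematopoietic stem and progenitor cells, and doxycycline in the drinking water (20 mg/L) holds it off. The 0W_LSK group was taken at week-0, with the transgene off, and the 3W_LSK group at week-3 after doxycycline was withdrawn. Both groups carried the transgene. Each was 1 pool of 3 mice on 1 array, the ages of the mice were not given in the sources used here, and no pool without BA was taken off doxycycline. What BA did, what withdrawing doxycycline did and what elapsed time or a single pool contributed cannot be told apart, and no test between the groups was possible. Errors are SD or SE over spots within an array, which are technical.

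NF-kB is a transcription factor that some inflammatory receptors switch on through the signaling proteins Irak1 and Traf6. MiR-146a and miR-146b lower Irak1 and Traf6 and so act as feedback brakes on the pathway, whereas miR-155 lowers the inhibitors Socs1 and Ship1 (Inpp5d) and is known for raising inflammatory and myeloid output. In mice, loss of miR-146a and excess of miR-155 in the marrow have both been linked to overproduction of myeloid cells.

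The mature sequences are shown first because the 2 brakes have the same seed, the part of a miRNA that selects its targets. They are taken from RefSeq (build GRCm38.p6) and written 5′ to 3′, with the seed (bases 2 to 8) in capitals.
mmu-miR-146a-5p: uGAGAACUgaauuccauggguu
mmu-miR-146b-5p: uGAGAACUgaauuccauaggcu
mmu-miR-155-5p: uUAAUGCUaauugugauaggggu
MiR-146a-5p and miR-146b-5p were the only 2 mature mouse miRNAs in that table with the seed GAGAACU, and miR-155-5p was the only 1 with UAAUGCU. Of 22 bases the miR-146 pair had 20 in common. Counted from the 5′ end of miR-146a-5p, the differences toward miR-146b-5p were G18A and U21C, both outside the seed. MiR-146a-5p lies on chromosome 11 from 43374435 to 43374456 (minus strand, gene Mir146). MiR-146b-5p lies on chromosome 19 from 46342790 to 46342811 (plus strand, gene Mir146b, within the lncRNA gene Gm36493). MiR-155-5p lies on chromosome 16 from 84714143 to 84714165 (plus strand) in Mir155, within the lncRNA gene Mir155hg, which runs from 84713023 to 84715245. Whether the miR-146b and miR-155 positions are exonic or intronic in those host genes was not analysed here.

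Each member was read by 2 array probes of 15 spots each, which pair with the 3′ part of the miRNA. The probes are shown because they decide whether the miR-146 pair can be told apart. Capitals mark the probe bases that would be mismatched against the other miR-146, and the miR-155 probes have none.
miR-146a-5p, 19 bases: aAccCatggaattcagttc
miR-146a-5p, 18 bases: aAccCatggaattcagtt
miR-146b-5p, 19 bases: aGccTatggaattcagttc
miR-146b-5p, 18 bases: aGccTatggaattcagtt
miR-155-5p, 18 bases: acccctatcacaattagc
miR-155-5p, 17 bases: acccctatcacaattag
All 4 miR-146 probes carried 2 such bases near the 5′ end of the probe.

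The week-0 array detected 178 miRNAs and the week-3 array 193, which gave 158 on both and 213 on at least 1. Detection is the flag of the scanner software, set when some probe of the miRNA has a total exceeding 3 times its own error. The negative control spots, which have no matching miRNA, averaged 4.83 ± 3.56 at week-0 (SD, 960 spots) and 4.50 ± 2.92 on the other array (SD, 977 spots), and 99% of them lay below 13.6 and 10.8. Because probes differ in brightness for reasons other than abundance, each member is set against these controls and against its own other array.

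MiR-146a-5p, the better-known brake, was detected at week-0 and not at week-3. Its longer probe had spot signals from 20.5 to 38.7 with a median of 32.7 at week-0, and from -1.08 to 9.70 with a median of 4.47 at week-3. The spots of the 2 arrays (15 each) did not overlap, and they were separated by a gap of 10.8 intensity units. Here and below, how often probes of other detected miRNAs separated in this way was not counted. At week-0 all 15 spots were above the highest negative control spot (16.3), and 14 were flagged well above background. At week-3 all 15 were within the range of the negative controls and 0 were well above background, so the mean of 3.71 ± 3.26 (SD) was below that of the controls. The shorter probe averaged 5.22 ± 2.93 (SD over 14 spots) and -0.725 ± 2.25 (SD over 13 spots). None of its spots (0 of 14 and 0 of 13) was well above background, so the call at week-0 rested on the longer probe alone.

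The week-3 level of miR-146a-5p is therefore not measured and is only set against reference values. Summed over both probes and quantile normalized, its log2 signal was 5.22 at week-0, against 1.59 at week-3, where it was not well above background. The lowest week-3 value was 4.20 among the 159 miRNAs with a probe having at least 50% of its spots well above background. The week-0 value of miR-146a-5p was 2.03-fold above that reference. Against the lowest value of any detected miRNA (2.71) the same comparison gave 5.71-fold. Both references come from probes of other miRNAs, so neither fold is a minimum for miR-146a-5p. The plain log2 difference of -3.63 (SE 0.51) uses a week-3 signal that cannot be told from background. It was the lowest of the 213, but it was -1.16 in the authors' normalized table and -0.29 with an RMA-like summary, which changed the background correction, an added offset of 50 and the summary together. Loss of the detection flag was not rare, since 20 of the 178 miRNAs detected at week-0 (11.2%) lost it at week-3.

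MiR-146b-5p, with the same seed, stayed detected on both arrays at a lower level. Its longer probe ranged from 26.8 to 37.8 with a median of 33.4 at week-0, and from 15.3 to 25.7 with a median of 18.2 at week-3. Again the spots of the 2 arrays did not overlap, but the gap was only 1.09 units. All 15 spots at week-0 and 13 of 14 at week-3 were well above background. The means were 33.1 ± 2.78 (SD over 15 spots) and 18.9 ± 2.55 (SD over 14 spots), an unscaled ratio of 0.569. The shorter probe averaged 7.17 ± 3.04 and 3.30 ± 2.63 (SD, 15 spots each), with 0 spots well above background on either array.

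After normalization miR-146b-5p had log2 signals of 5.32 and 4.54, a difference of -0.78 (SE 0.07) or 1.71-fold lower. This passed the threshold of the study for a lower miRNA, a ratio of 0.67 or less, with a ratio of 0.583. In the authors' table the difference was -0.55, a ratio of 0.681 that fell short. When the arrays were scaled on the control probes dmr_285 and dmr_31a, it was also short, with -0.51 and a ratio of 0.703, and so it was with the RMA-like summary, with -0.15 and a ratio of 0.902. The sign turned, to 0.93, when the scanner's own total for a miRNA was used, a column that here exceeded the sum of the probes.

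At week-3, then, the longer probe of miR-146b-5p averaged 18.9 on an array where the longer probe of miR-146a-5p averaged 3.71. The 2 probes differ at 2 of 19 bases. Any binding of miR-146b-5p to the miR-146a probe at week-3 thus gave no signal above the negative controls. Binding in the other direction, at week-0, was not tested. A probe with no spot well above background was common among detected miRNAs with 2 probes. At least 1 such probe was found for 60 of 162 (37.0%) on the first array and 50 of 175 (28.6%) on the second, and 1 was found for each miR-146 member at week-0.

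MiR-155-5p, the inflammatory member, was the only 1 of the 3 that both of its probes measured above background. The longer probe ranged from 70.3 to 96.8 with a median of 86.9 at week-0, and from 46.2 to 62.8 with a median of 54.2 at week-3. All 15 spots were well above background on both arrays, and the 2 arrays were separated by 7.5 units. The shorter probe ranged from 18.1 to 33.4 with a median of 25.2 at week-0, and from 9.86 to 19.2 with a median of 15.4 at week-3. Here the arrays overlapped slightly, with 2 of 15 week-3 spots at or above the lowest week-0 spot, and 10 and 5 of 15 spots were well above background.

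The unscaled ratios of week-3 to week-0 were close for the 2 probes of miR-155-5p, 0.640 (log2 -0.64, SE 0.05) for the longer and 0.590 (log2 -0.76, SE 0.10) for the shorter. The normalized log2 signals were 6.68 and 6.11, a difference of -0.57 (SE 0.04) or 1.48-fold lower. The ratio of 0.673 lay just outside the threshold of 0.67. Of 14 alternative settings, all 14 gave a lower value at week-3 and 4 passed the threshold, among them the authors' table (-0.73, a ratio of 0.604) and no normalization (-0.67). With the control probes dmr_285 and dmr_31a the difference was -0.31. Over the 158 miRNAs on both arrays, the median difference itself was -0.18 without normalization and -0.04 with quantile scaling.

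**Figure D1:**
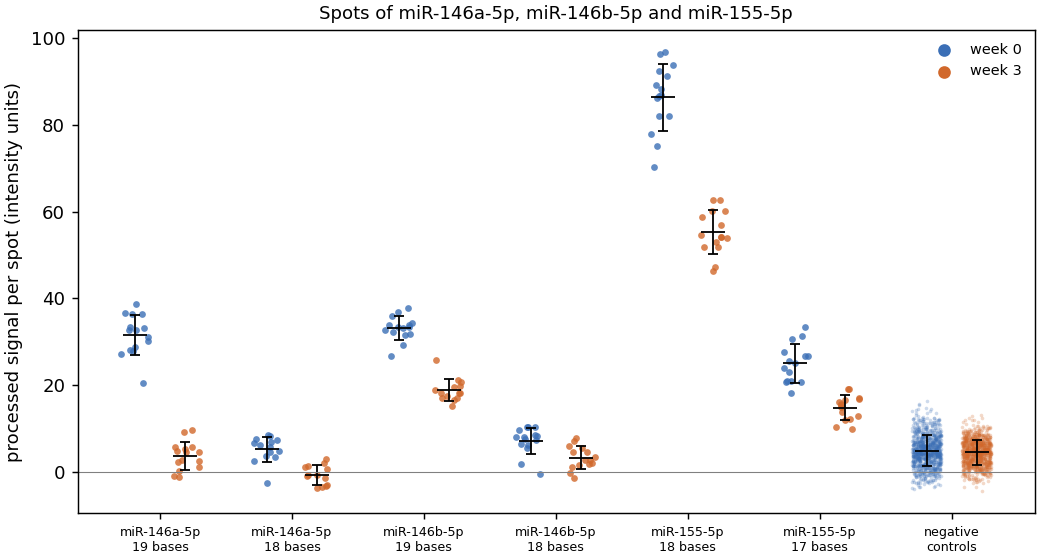
Processed signal of each spot (vertical axis, intensity units) for the 2 probes of each member and for the negative controls, at week-0 (blue) and week-3 (orange), with mean and SD over spots as bars. The longer miR-146a-5p probe went from a mean of 31.6 at week-0 to 3.71 at week-3, within the negative controls, while the longer miR-146b-5p and miR-155-5p probes stayed above them.

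Set side by side, the brakes and miR-155-5p had lower signals at week-3. MiR-146a-5p and miR-146b-5p passed the threshold and miR-155-5p did not, so 2 of 3 were called lower. The share called lower among the 213 miRNAs detected on at least 1 array was 28.6%. This split depended on the setting. In the authors' table miR-155-5p passed (0.604) and miR-146b-5p did not (0.681). Without normalization all 3 passed, and with the RMA-like summary none did. The number of the 213 called lower also changed, to 53 in the authors' table, 76 without normalization and 10 with the RMA-like summary. Among the 158 detected on both arrays, 26.6% were called lower and 19% higher, and miR-146b-5p ranked 30th and miR-155-5p 43rd from the lowest difference. Both thus lay in the lower part of the detected miRNAs without standing apart from them.

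The difference of miR-146b-5p minus that of miR-155-5p was -0.21 on the log2 scale (SE 0.08, 95% interval over spots from -0.37 to -0.04), which covers spot error only. The order of these 2 held in 11 of 14 alternatives and turned in 3. Those were the authors' table (0.17), the RMA-like summary (0.01) and the scanner's total signal (1.34). No normalization, both 75th percentile scalings and the control-probe scaling gave the same -0.19, because a single factor per array cancels between miRNAs. The floor of 1 left -0.21 unchanged. These settings could not turn an order between members, so the count of 11 overstates how often it was put to a test. MiR-146a-5p had the lowest difference of the 3 in all 14, although its week-3 value is a background signal.

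**Figure D2:**
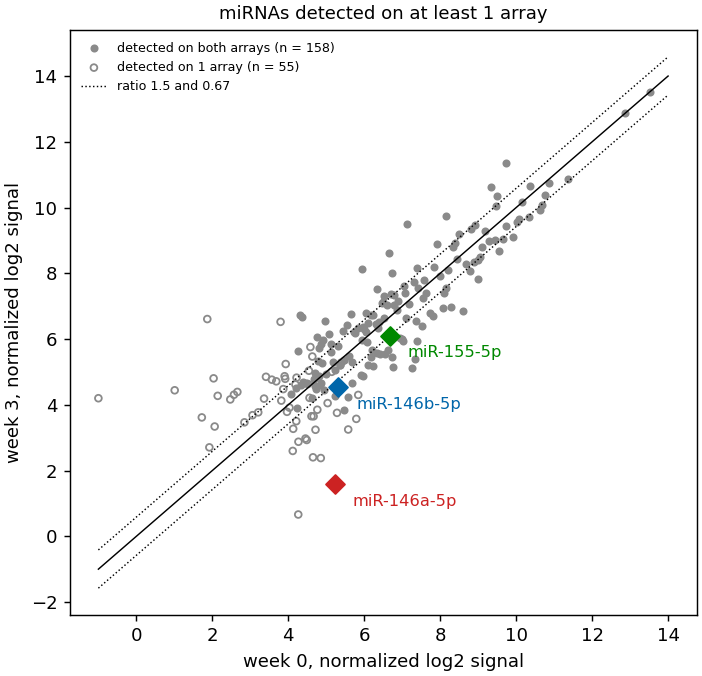
Normalized log2 signal at week-0 (horizontal) and week-3 (vertical) of the 213 miRNAs detected on at least 1 array, with filled grey points for the 158 detected on both, coloured diamonds for the 3 members, a solid line of equality and dotted lines at ratios of 1.5 and 0.67. MiR-155-5p lies next to the lower dotted line, miR-146b-5p just below it and miR-146a-5p far below, at a week-3 value of 1.59 that is not above background.

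**Figure D3:**
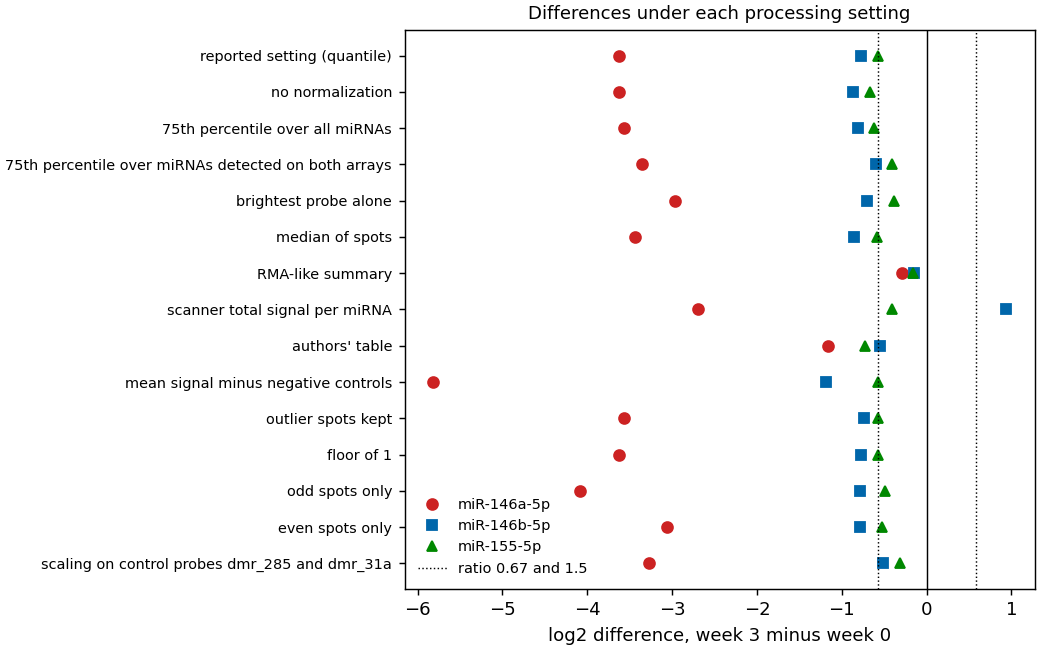
Log2 difference of week-3 minus week-0 (horizontal) of the 3 members under the reported setting and 14 alternatives (vertical), with dotted lines at ratios of 0.67 and 1.5. MiR-155-5p stays between -0.73 and -0.16, while miR-146a-5p moves from -5.81 to -0.29 and miR-146b-5p reaches 0.93 with the scanner's total signal.

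The opposite arms of the 3 hairpins, which are usually degraded, were not detected on either array. Of 30 spots used for miR-146a-3p, 29 and 28 for miR-146b-3p and 30 for miR-155-3p, 0 were well above background at either time. Probe means ranged from -4.96 for miR-146b-3p to 2.67 for miR-155-3p at week-0, below the mean of the negative controls. For each member the guide arm alone was thus detected at week-0, and for miR-146a-5p neither arm was detected at week-3. A ratio between times for the opposite arms would compare background signals.

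**Figure D4:**
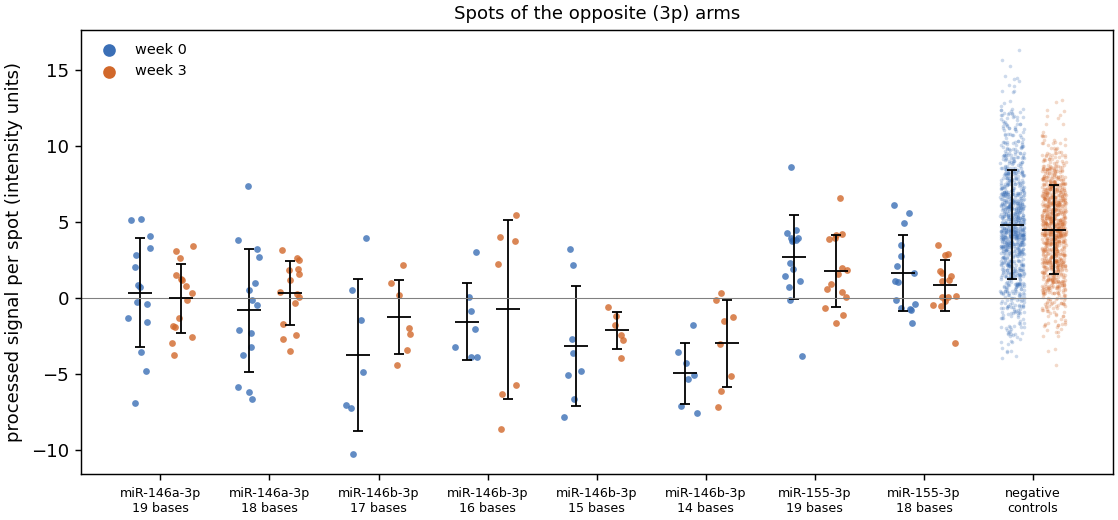
Processed signal of each spot (vertical axis, intensity units) for the probes of miR-146a-3p, miR-146b-3p and miR-155-3p and for the negative controls at week-0 (blue) and week-3 (orange), with mean and SD over spots. All probe means lie below the control means of 4.83 and 4.50.

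Other miRNAs linked to NF-kB were called in both directions, as were the 213 detected miRNAs as a whole. Of 13 on a list of miRNAs that are induced by the pathway or act on it, 8 were detected on at least 1 array. Of these 3 were lower, 2 higher and 3 within 1.5-fold, with a median log2 difference of -0.29 against 0.00 for all 213. Without normalization 4 were lower, miR-16-5p being added, and 0 higher, with a median of -0.54. At this threshold 28.6% of the 213 were lower and 25.8% higher, so the split of the 8 is not read as particular to the list. Without normalization 76 of the 213 were lower and 43 higher. The lower ones were miR-125b-5p, known in human cells to target the NF-kB inhibitor Tnfaip3 (-1.95, SE 0.05), miR-181b-5p, which limits nuclear import of NF-kB (-0.75, SE 0.06), and miR-15a-5p, a repressor of Bcl2 (-0.73, SE 0.02).

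The higher ones were miR-223-3p, a granulocyte miRNA that restrains inflammatory signaling (0.84, SE 0.02), and miR-212-3p, which shares a cluster with miR-132. The latter was detected at week-3 only. Its unscaled signal went from 8.84 to 12.1 and its normalized log2 difference was 0.63 (SE 0.25), which rests on an undetected week-0 value. Both higher calls were lost without normalization, with ratios of 1.37 for each, and with scaling on the 75th percentile of all miRNAs (1.42 for each), and that of miR-212-3p also in the authors' table (1.20) and the RMA-like summary (1.04). The scanner's total signal turned miR-125b-5p to higher. The lower calls of miR-15a-5p and miR-181b-5p were lost with the RMA-like summary. That of miR-181b-5p was also lost with scaling on the control probes dmr_285 and dmr_31a. MiR-21a-5p, which is also induced by inflammatory signals, had unscaled signals of 1956 and 1635 and a normalized log2 difference of -0.11 (SE 0.02). MiR-301a-3p had -0.14 (SE 0.06) and miR-16-5p, which shares its seed with miR-15a-5p, had -0.43 (SE 0.03). The 5 undetected ones were miR-9-5p, miR-132-3p, miR-147-3p, miR-187-3p and miR-199a-5p, several of which respond to Toll-like receptors in macrophages.

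**Figure D5:**
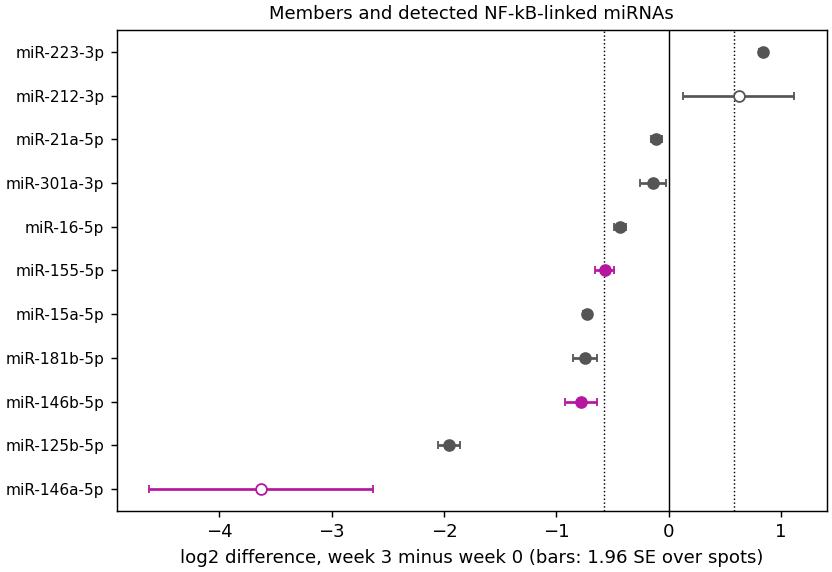
Log2 difference of week-3 minus week-0 (horizontal, bars of 95% intervals over spots) of the 3 members (purple) and the 8 detected miRNAs of the NF-kB-linked list (grey), with open symbols for miRNAs detected on 1 array and dotted lines at ratios of 0.67 and 1.5. Values run from -3.63 for miR-146a-5p to 0.84 for miR-223-3p.

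Markers of other cells moved as well. Among the markers here and below, miR-223-3p and miR-125b-5p were also on the NF-kB-linked list, so their values are the same measurements. MiR-146a and miR-155 are also abundant in mature lymphocytes and myeloid cells. Marker signals here and below are unscaled, unlike the normalized differences of the members. The myeloid marker miR-223-3p went from a signal of 820 to 1121. The lymphoid marker miR-150-5p was undetected on both arrays, with 11.8 and 0.947. Of 2 erythroid markers, miR-144-3p was undetected and miR-451a lost its detection after week-0, with 48.9 and then 8.95. The summed signal of both was 50.1 and 8.0. The endothelial marker miR-126a-3p, which stem cells also express, had 248 and 94.3. The stromal markers miR-143-3p and miR-145a-5p were undetected, with a sum of -8.25 and -7.89.

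For the labelled cell type, the stem and progenitor markers miR-99a-5p, miR-125b-5p and miR-130a-3p were all 3 detected on both arrays. The label was met in detection only, as their summed signal went from 806 to 175. The blood cell markers miR-142a-3p and miR-142a-5p were both detected, with a sum of 1416 and 805. The part of these marker shifts in the lower signals of the 3 members was not tested. In a sorted population, fewer cells that hold a miRNA and less of it per cell cannot be told apart.

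The miRNAs most like each member were taken as those at the smallest Euclidean distance in the 2 normalized log2 values, over 2 arrays, among the 213. For miR-155-5p these were miR-652-3p (distance 0.10, log2 difference -0.71), miR-148a-3p (0.11, -0.48) and miR-30e-5p (0.26, -0.89). For miR-146b-5p they were miR-350-3p (0.05, -0.71), miR-450a-5p (0.30, -0.99) and miR-374c-5p (0.36, -1.02). All 6 were detected on both arrays. For miR-146a-5p they were miR-125a-5p (0.87, -2.48), miR-101c (0.99, -2.25) and miR-100-5p (1.33, -3.60). Like miR-146a-5p, these 3 were detected at week-0 only, and of 20 such miRNAs 19 had a ratio of 0.67 or less, a direction that the choice of miRNAs that lost detection favours.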

How the data were processed

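RNA from each of the 2 LSK pools was Cy3-labelled and read on 1 Agilent miRNA microarray. Spot values came from Feature Extraction 10.7.1.1, which the authors ran per the file headers. The deposited intensity values (processed signal, background-subtracted, with no scaling between arrays) and 0 or 1 flags (deposited as another kind of value) were used per spot. The authors also deposited log2 signals that were quantile normalized with AgiMicroRna; their background step is not given in the sources used here. The header names mm9 for the probe positions, whereas the starts in the authors' table equalled those of RefSeq GRCm38.p6 for all 6 arms of the members.

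Control spots and outlier spots (1941 and 1600 miRNA spots) were left out, spot signals were averaged per probe, summed over probes, quantile normalized over 1881 miRNAs, floored at 0.5 and taken to log2 (Python 3.11.15, numpy 2.4.6, pandas 2.3.3). An RMA-like summary used limma 3.58.1 (normexp, offset 50). The steps were tested on simulated data. Calls used ratios of at least 1.5 or at most 0.67 over miRNAs detected on at least 1 array. The number of arrays limits the precision.

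The members and lists were chosen with earlier results of these data known. Named miRNAs were the members, their opposite arms, the NF-kB-linked list, markers and the 3 nearest miRNAs of each member. Alternatives changed the scaling, the summary, the background, the outlier spots, the floor and the spots used. Of 1881 array miRNAs, 1608 matched the RefSeq table by name.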

Additional observations from a re-analysis of the deposited data

Results flagged for a closer look

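The scanner software's total signal of miR-146b-5p, a column that the reported values do not use, was higher at week-3 (23.0) than at week-0 (13.7), against the direction of both of its probes. The totals of its 2 probes summed to 4.70 at week-3 and 8.55 at week-0, so the column exceeded its probes 4.90-fold and 1.60-fold. For miR-155-5p the same column equalled the sum on both arrays, with 23.6 at week-0 and 14.9 at week-3. At week-0 1 probe of miR-146b-5p was below 3 times its error, as was 1 probe of miR-146a-5p, whose column at that time equalled the longer probe alone (6.69).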

How the results depend on the processing

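With 14 alternatives per member, miR-146a-5p and miR-155-5p were lower at week-3 in all 14 and miR-146b-5p in 13, and 13, 4 and 10 passed a ratio of 0.67. The RMA-like summary gave -0.29 for miR-146a-5p, -0.15 for miR-146b-5p and -0.16 for miR-155-5p; the cause was not tested. The authors' table gave -1.16, -0.55 and -0.73. The scanner's total signal gave 0.93 for miR-146b-5p, a reversal, and -0.41 for miR-155-5p; the cause was not tested. Subtracting the negative controls from the mean signal gave -5.81 for miR-146a-5p and -1.19 for miR-146b-5p. Scaling on the 75th percentile of miRNAs detected on both arrays gave -0.60 for miR-146b-5p and -0.40 for miR-155-5p, and scaling on the control probes dmr_285 and dmr_31a, chosen after their values were seen, -0.51 and -0.31. MiR-155-5p had -0.67 without normalization and -0.38 with its brightest probe alone. The other alternatives moved no member beyond its 95% interval over spots. Over all miRNAs detected on at least 1 array, 55 were higher and 61 lower, against 43 and 76 without normalization, 70 and 53 with the control-probe scaling and 71 and 68 with the scanner's total signal. Higher counts were 30 among those detected on both arrays, 32 at 2-fold and 11 with the RMA-like summary, and lower counts were 33 at 2-fold and 10 with the RMA-like summary. Asking for at least 50% of all spots well above background left miR-146a-5p on 0 arrays and miR-146b-5p on 1, and asking for 50% of them above 99% of the negative controls left miR-146b-5p on 1. That last rule and the alternatives for the NF-kB-linked list were also chosen after seeing the data. No paired analysis was possible because each group held 1 array. For miR-146a-5p and miR-146b-5p, 1 probe had no spot well above background on either array.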

Other observations

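The array's bright positive control probes differed in their ratio of week-3 to week-0. Probes dmr_285 and dmr_31a had ratios of 0.792 and 0.772, and the other 7 ranged from 0.954 to 1.69. The unscaled ratio of miR-155-5p, 0.629, and that of miR-146b-5p, 0.550, were below all of these, as was the 0.0812 of miR-146a-5p. Which of these controls were matched by RNA added to the samples is not given in the sources used here.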
